A study of Homo sapiens with 9 samples.

Results

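The genes described here were *CTCFL* and 6 genes reported in other work to be regulated by its product, *MYC*, *TERT*, *BAG1*, *GAL3ST1*, *SBSN* and *PRSS50*. They were taken by name from the count matrix, and make up 7 of its 60660 genes. Their mRNA was measured by RNA-seq in OVCAR3, a cell line derived from a human ovarian carcinoma, in 3 conditions with 3 biological replicates each. For the plasmid transfections every replicate was a pool of 3 technical ones, which is not stated for CTCFL-KD. Control and CTCFL-OE cells were both transfected with 2 µg of a pCpGfree-vitroH plasmid, carrying LacZ in Control and the 663-amino acid *CTCFL* open reading frame in CTCFL-OE, and were collected after 48 h. CTCFL-KD cells received siRNA against *CTCFL*, and the study's methods place them in an earlier knockdown experiment. All groups came from the same line, the overexpression was transient, and no Control of the knockdown experiment was analysed here. Differences between CTCFL-KD and the other groups that come from the siRNA, from the separate experiment or from the loss of *CTCFL* cannot be told apart.

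CTCFL, also called BORIS, is the paralog of the insulator protein CTCF, and shares with it the array of zinc fingers that reads DNA. It is normally made in the testis, where germ cells form, and is switched on in some tumors, so it is counted among the cancer-testis antigens. Proposed targets of such a factor include growth genes (*MYC*, *TERT*), a survival gene (*BAG1*), a lipid-modifying enzyme (*GAL3ST1*), a secreted skin protein (*SBSN*) and a testis protease that is itself a cancer-testis antigen (*PRSS50*).

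Total counts per library ran from 14332622 to 24490080, so that 3 counts, the upper limit (about 95%) that a count of 0 allows for counting error alone, were worth 0.117 to 0.271 CPM (a count relative to its library total, scaled by TMM). Mitochondrial genes took 6.16 to 6.52% of counts in Control, against 7.40 to 14.9% for CTCFL-OE and 7.80 to 11.8% for CTCFL-KD. CTCFL-KD replicate 1 stood apart, with a TMM factor of 0.775 and levels that fell with transcript length relative to the other CTCFL-KD libraries. Spearman's rho over 15327 genes was −0.59 for its log level minus the mean of the other 2 libraries of the group. The same measure was 0.54 and 0.56 in the other CTCFL-KD libraries. Those are set partly against replicate 1, so the 3 values are not independent. In Control it was −0.29, 0.06 and 0.24. All 10 ovarian epithelial markers were counted in every group. Their summed level was 5949 to 6073 CPM in Control, 5018 to 5533 CPM in CTCFL-OE and 9929 to 16885 CPM in CTCFL-KD, where 7 rose and 2 fell and 38.2% of all genes were called. Fibroblast markers, of which 4 of 10 were tested and 2 (*COL1A2* and *POSTN*, which passed the filter only through CTCFL-KD) were called higher in CTCFL-KD, summed to 28.0 to 33.8, 25.0 to 44.2 and 37.8 to 43.0 CPM. *COL1A1* made up most of these sums, at means of 29.8, 33.5 and 23.3 CPM. The proteoglycan gene *DCN* had no more than 4 counts in any library, while *COL1A2* had 0, 3 and 642 counts over the libraries of Control, CTCFL-OE and CTCFL-KD, *COL3A1* had 0, 0 and 25 and *POSTN* had 8, 6 and 40. The part of these differences in the results below was not tested.

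*CTCFL* (ENSG00000124092.12, GRCh38 chr20:57495966-57525652, minus strand) was counted at 6, 9 and 10 reads in Control, at 36, 34 and 72 reads in CTCFL-OE, and at 0, 1 and 0 reads in CTCFL-KD. The 3 groups did not overlap, and every CTCFL-OE library lay above every Control library. Mean levels were 0.386 ± 0.108 CPM for Control, 2.61 ± 1.57 CPM for CTCFL-OE and 0.0198 ± 0.0343 CPM for CTCFL-KD (SD, n = 3). In CTCFL-OE the level was 6.64-fold that of Control (log2 fold change 2.73, SE 0.48, 95% interval 1.67 to 3.79, adjusted p = 0.0287, quasi-likelihood test of edgeR, Benjamini-Hochberg adjustment over 17794 genes). *CTCFL* passed the low-count filter only through the CTCFL-OE libraries, where it is high, so its p values in all 3 comparisons are descriptions and no support for a difference. Without CTCFL-OE replicate 3, the highest, the log2 fold change was 2.13. The first of the p values moved to an edgeR adjusted p of 0.169, 0.176 and 0.125 when Control replicate 1, 2 or 3 was left out. With every CTCFL-KD library set at 3 counts, *CTCFL* was lower in CTCFL-KD by 1.89-fold against Control and by 12.8-fold against CTCFL-OE. Those 3 counts are the limit for a count of 0, while 1 of these libraries had 1 count. Counting error in Control and CTCFL-OE is not included in these folds. The edgeR adjusted p from the counts themselves was 0.0162 against Control and 0.000242 against CTCFL-OE. Without CTCFL-KD replicate 3 the edgeR adjusted p against Control was 0.0551. The plasmid's open reading frame can add reads to the same gene. FPKM here is CPM divided by the length of all annotated exons together in kilobases, and ranks run over the 17736 genes that passed the filter and had a length. *CTCFL* was at 0.0432 ± 0.0120 FPKM in Control, higher than 1.47% of those genes, and at 0.293 ± 0.176 FPKM in CTCFL-OE, higher than 11.2%. Its exons add up to 8928 bases while the transcript length used for the length trends is 3500 bases, and the plasmid carries the reading frame alone, so these values per length are low estimates.

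**Figure D1:**
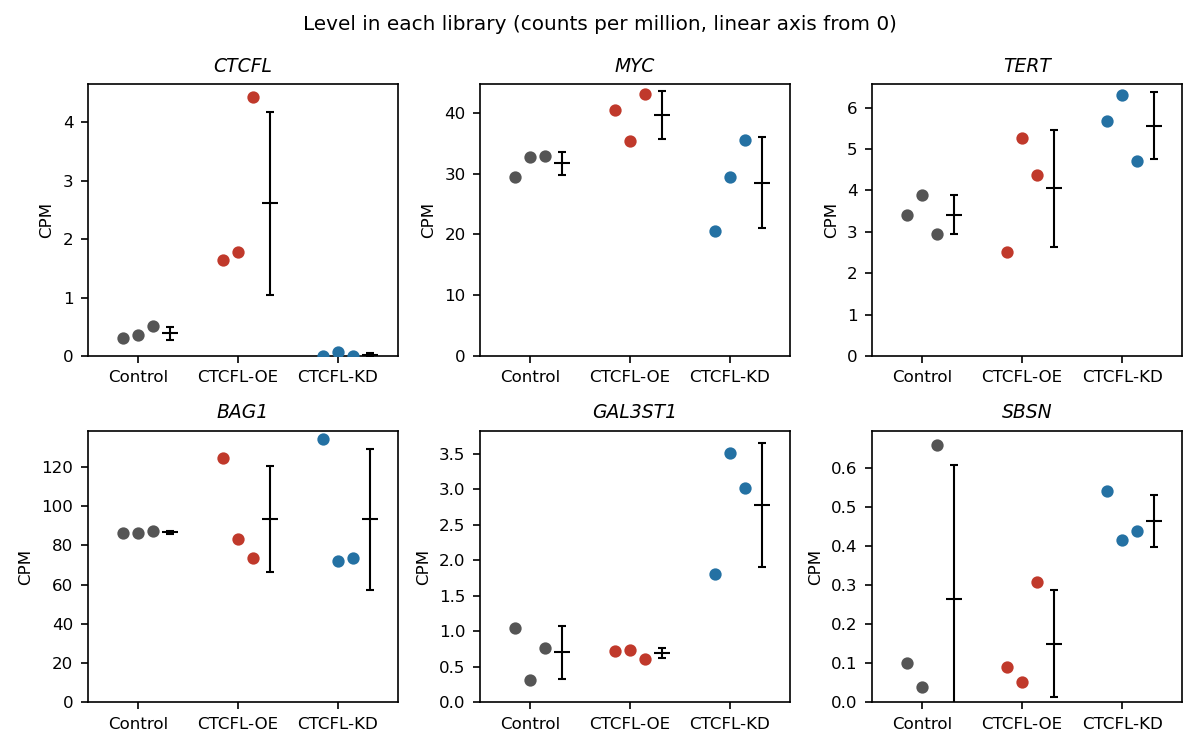
CPM (y axis, linear from 0) of 6 of the 7 genes in each of the 9 libraries, by condition. Points are libraries, and the black mark with its bar is the mean ± SD of 3 libraries, with bars cut at 0. *CTCFL* separates the 3 conditions, *GAL3ST1* is higher in every CTCFL-KD library than in the other 6, and 1 library stands above its fellows for *BAG1* in CTCFL-OE and CTCFL-KD and for *SBSN* in Control.

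The study's list of predicted CTCFL sites includes one before *CTCFL* itself, so this sequence was read from the genome. The listed 11-base element is AGGGGGCGCTC, and its first letters are the core of the DNA pattern that CTCF is known to bind. It was searched with up to 1 mismatch on both strands in the 2000 bases before the most upstream annotated *CTCFL* start. No exact copy was found, but 7 copies lay there with the same substitution, C11G (positions counted from 1 at the 5′ end, listed base first, genome base last). They are shown 5′ to 3′ on the plus strand, opposite to the gene, with 20 bases on each side and the element in capitals, because they repeat within 1 stretch of DNA before the manipulated gene.
chr20:57526201-57526251: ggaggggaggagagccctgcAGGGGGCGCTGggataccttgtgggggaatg
chr20:57526256-57526306: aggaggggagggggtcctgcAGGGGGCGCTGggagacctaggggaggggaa
chr20:57526370-57526420: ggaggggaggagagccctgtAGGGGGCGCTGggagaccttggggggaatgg
chr20:57526424-57526474: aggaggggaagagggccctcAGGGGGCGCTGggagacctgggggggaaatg
chr20:57526700-57526750: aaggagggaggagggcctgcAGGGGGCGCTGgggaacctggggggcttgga
chr20:57526753-57526803: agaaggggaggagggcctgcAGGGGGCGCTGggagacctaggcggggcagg
chr20:57526820-57526870: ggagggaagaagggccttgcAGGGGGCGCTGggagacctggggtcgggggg

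The copies began 569, 624, 738, 792, 1068, 1121 and 1188 bases before the *CTCFL* start, 53 to 276 bases apart, and the flanks were alike as well. The genome form of the element occurred 44 times on both strands of chromosome 20, in 38 of 31892 windows of 2000 bases free of unread bases. The window at chr20:57526001-57528000 held 7 of these, and it was the single window with 3 or more. Binding was not measured in these libraries. Among genes annotated as protein-coding, *HMGB1P1* has the start nearest to that of *CTCFL*, at 30286 bases. It fell in CTCFL-KD by 0.83 on the log2 scale (SE 0.26, edgeR adjusted p = 0.0259).

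**Figure D2:**
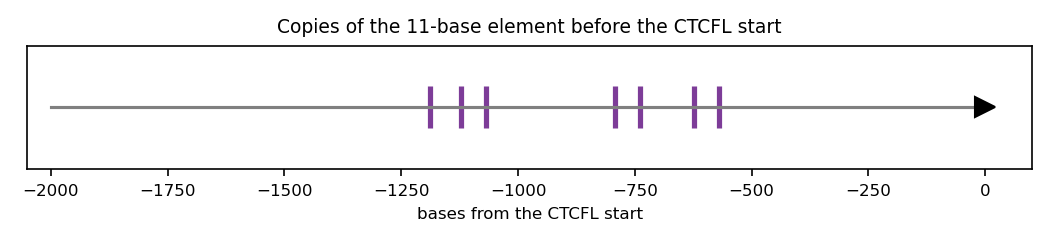
Positions of the 7 copies of the 11-base element (vertical bars) in the 2000 bases before the *CTCFL* start (black arrowhead at 0), with the x axis in bases from that start. All copies lie between 569 and 1188 bases before the start, and none lies closer.

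Shorter letter strings were counted in the RefSeq promoter windows (GRCh38, 250 bases before to 50 after each start, both strands) of the 6 genes with an entry, which had 10 windows. CCCTC, the repeat that gave CTCF its name, was in 10 of the 10 windows and in 71.2% of all 35116 windows. AGGGGGC was in 6 of the 10 windows, from 5 genes, and in 14.4% of all windows, and the 2 strings can share letters where GAGGG runs into AGGGGGC. The first *CTCFL* window held 13 matches to CCCTC, a number reached by 23 of the 35116 windows. The AGGGGGC matches in the first windows of 4 genes are shown with 10 bases on each side, 5′ to 3′ on the gene's strand, the match in capitals (GCCCCCT where it lies on the other strand), because *GAL3ST1*, the one target that passed the test, and 2 that did not or could not be tested all hold one. *SBSN* held none in its window, *TERT* held 1, and *MYC* had no entry.
CTCFL, chr20:57525747-57525773: ggtgtcacagGCCCCCTgcaggccccc
GAL3ST1, chr22:30574722-30574748: tggggcggggAGGGGGCcggcccgggg
BAG1, chr9:33264864-33264890: gagagcctgcAGGGGGCggggtgttgg
PRSS50, chr3:46717877-46717903: tgcggccaacAGGGGGCgccgtcgtgg

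Of the 6 proposed targets, *MYC*, *TERT*, *BAG1* and *GAL3ST1* passed the low-count filter, each also without any one group, and *SBSN* and *PRSS50* did not. In CTCFL-OE, 0 of these 4 targets were called at an edgeR adjusted p under 0.1, and 0 had an unadjusted p under 0.05 or were called by DESeq2 on all 9 libraries. Among all 17794 genes, 1.99% were called higher and 1.16% lower in CTCFL-OE, and 2.07% also had a log2 fold change beyond 1. In that comparison 3157 of the 17794 genes had an unadjusted p under 0.05, and DESeq2 on all 9 libraries called 7.65% of the genes it tested. In CTCFL-KD, 1 of the 4, *GAL3ST1*, was called higher at an adjusted p under 0.05 and none lower, where 21.4% of all genes were called higher, 16.8% lower, and 23.2% also had a log2 fold change beyond 1. Between CTCFL-KD and CTCFL-OE *GAL3ST1* was again the 1 called of 4, where 15.3% of genes were called higher in CTCFL-KD, 11.5% lower and 17% also beyond that fold. The comparisons of CTCFL-OE and CTCFL-KD with Control share the Control libraries. Read against these shares, 1 call among 4 genes did not set the targets apart from other genes.

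**Figure D3:**
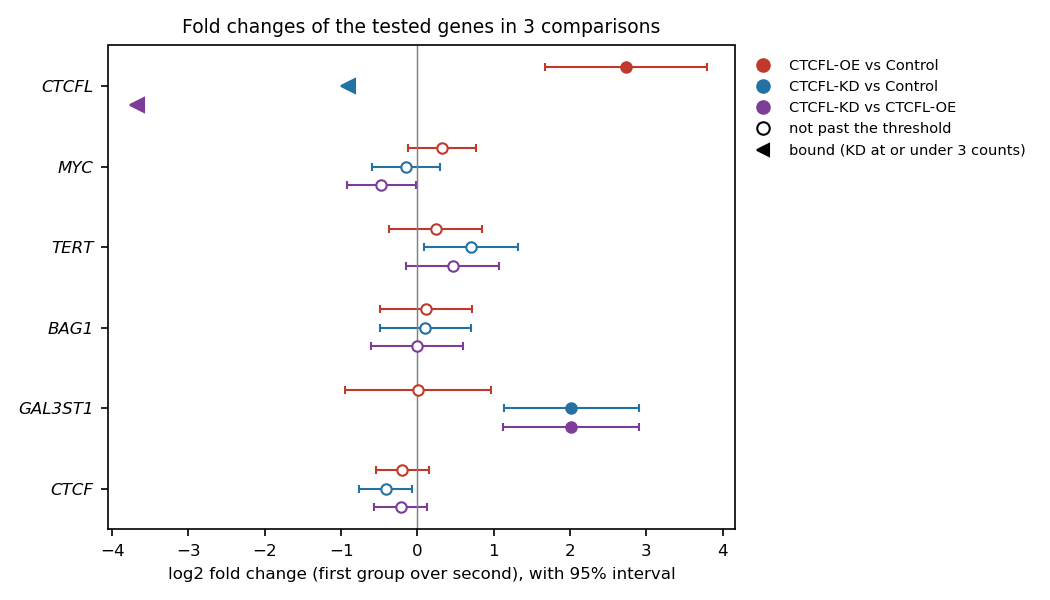
Log2 fold changes (x axis, first group over second) of the 5 tested genes and *CTCF* in 3 comparisons, with 95% intervals, filled where the adjusted p passed, which for *CTCFL* is a description. Arrowheads for *CTCFL*, marked as a bound, take every CTCFL-KD library at 3 counts, since these held 0 or 1 count. *GAL3ST1* lies at 2.02 and 2.01 in both comparisons of CTCFL-KD, and the intervals of *BAG1* include 0 in all 3.

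Per kilobase of exon, the order in Control was *BAG1* (12.2 FPKM), *MYC* (5.19), *TERT* (0.576), *GAL3ST1* (0.229), *SBSN* (0.134) and *CTCFL* (0.0432). *SBSN* could not be placed against either of its neighbours, because its Control libraries ran from 0.0196 to 0.332 FPKM. *BAG1* was higher than 80.5% of the 17736 genes ranked, *MYC* than 62.8%, *TERT* than 22.0% and *GAL3ST1* than 10.3%.

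*MYC* (ENSG00000136997.21, chromosome 8) encodes a transcription factor that drives growth and ribosome production as a partner of MAX. It was at 29.4, 32.7 and 32.9 CPM in Control, 40.5, 35.4 and 43.0 CPM in CTCFL-OE, and 20.6, 29.5 and 35.4 CPM in CTCFL-KD. Every CTCFL-OE library was above every Control library, and the CTCFL-KD libraries overlapped both groups. The CTCFL-OE level was 1.25-fold that of Control, which did not pass the test (log2 fold change 0.32, SE 0.20, 95% interval −0.13 to 0.77, edgeR adjusted p = 0.431). That adjusted p was 0.0759 with edgeR and 0.0923 with DESeq2 on the 6 libraries of these groups alone, and 0.0772 without CTCFL-KD replicate 1. These were the 3 of 20 alternatives in which it passed. In CTCFL-KD the log2 fold change from Control was −0.15 (SE 0.20, 95% interval −0.60 to 0.30, edgeR adjusted p = 0.589), and 0.04 without CTCFL-KD replicate 1. The direct difference of CTCFL-KD from CTCFL-OE was −0.47 (95% interval −0.92 to −0.02, edgeR adjusted p = 0.109). It passed in 3 of 20 alternatives, among them at −0.50 once trends on length and GC content were removed (edgeR adjusted p = 0.0234). Over the alternatives it ran from −0.66 to −0.28. Of its exon bases, 3.18% are shared with the opposite-strand gene *CASC11*, at 0.0931 CPM in Control.

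Around *MYC*, 16 genes of the MYC-MAX network were tested. In CTCFL-OE 0 were called by edgeR, against 3.15% of all genes, and 1 by DESeq2, 6.25% against 7.65%. At an unadjusted p under 0.05 there were 2, against 3157 of all 17794 genes. In CTCFL-KD 4 rose and 2 fell, 37.5% of the list against 38.2% of all genes, with a median log2 fold change of 0.12 against 0.08. The risers included the MYC paralogs *MYCL* (mean 15.7 CPM in Control and 40.9 CPM in CTCFL-KD, log2 fold change 1.38, SE 0.19, edgeR adjusted p = 0.0003) and *MYCN* (1.08 and 2.19 CPM, log2 fold change 1.04, SE 0.30, edgeR adjusted p = 0.0192). *MLXIPL*, a glucose-responsive factor that pairs with MLX, rose as well (1.55, SE 0.49, edgeR adjusted p = 0.029). The fallers were its relative *MLXIP* (−0.68) and *MLX* itself (−0.54). The call of *MLXIPL* was lost without Control replicate 2 or 3 or CTCFL-KD replicate 1 or 2 (edgeR adjusted p up to 0.101), that of *MYCN* without Control replicate 2 or CTCFL-KD replicate 2 or 3 (up to 0.0973), and that of *MLX* without any one Control library (up to 0.0766). With CTCFL-KD replicate 1 left out, the list gave 4 higher and 2 lower in CTCFL-OE, 37.5% against 27.4% of all genes. In CTCFL-KD it then gave 4 higher and 4 lower, 50% against 49.9%. In all 3 CTCFL-KD libraries *MYCL* lay between 39.2 and 43.4 CPM, above the 14.8 to 17.2 CPM of Control and the 17.9 to 26.1 CPM of CTCFL-OE.

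Of 22 genes known as MYC targets, 21 were tested. In CTCFL-OE edgeR called 1, 4.76% of the list against 3.15% of all genes, and DESeq2 called 2, 9.52% against 7.65%. At an unadjusted p under 0.05 there were 3, against 3157 of all 17794 genes. The edgeR call was *LDHA*, the lactate dehydrogenase subunit, at 1672, 1730 and 1733 CPM in Control and at 1007, 696 and 670.5 CPM in CTCFL-OE (log2 fold change −1.11, SE 0.22, edgeR adjusted p = 0.042). That call was lost without any one Control library and without CTCFL-OE replicate 2 or 3. In CTCFL-KD 2 rose and 5 fell, 33.3% of the list against 38.2% of all genes, with a median of −0.19. The risers were *FBL*, a nucleolar methyltransferase (1.33, SE 0.36), and the DNA repair enzyme *APEX1* (0.95, SE 0.17), and the strongest falls were in *EIF4E*, the cap-binding factor (−1.19, SE 0.18), the ribosome assembly gene *WDR43* (−1.06, SE 0.18) and *NPM1*, a nucleolar chaperone (−0.85, SE 0.28). *FBL* was at 0.66 without CTCFL-KD replicate 1, and its call was lost without any one Control library (edgeR adjusted p up to 0.0553). The call of *NPM1* was lost without any one Control library and without CTCFL-KD replicate 2 or 3 (up to 0.103). These counts depended on CTCFL-KD replicate 1. Without it 3 rose and 13 fell in CTCFL-KD, with a median of −0.58 and 49.9% of all genes called, and 8 fell in CTCFL-OE, where 27.4% of all genes were called. With length and GC trends removed, 3 rose and 14 fell in CTCFL-KD, where 46.2% of all genes were called. *MYC* itself was not called in CTCFL-KD in any of the 20 alternatives, with edgeR or DESeq2 adjusted p values from 0.234 to 0.819.

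*TERT* (ENSG00000164362.21, chr5:1253147-1295068, minus strand) encodes the catalytic subunit of telomerase, silent in most body cells and active in most tumors. It was at 3.41, 3.89 and 2.94 CPM in Control, 2.51, 5.28 and 4.36 CPM in CTCFL-OE, and 5.68, 6.30 and 4.71 CPM in CTCFL-KD, from 55 to 106 counts per library. All CTCFL-KD libraries were above all Control libraries, while CTCFL-OE spanned both. The CTCFL-KD level was 1.63-fold that of Control, just short of the threshold (log2 fold change 0.70, SE 0.28, 95% interval 0.09 to 1.31, edgeR adjusted p = 0.0671). It passed in 3 of 20 alternatives, with adjusted p of 0.0307 (edgeR) and 0.0488 (DESeq2) on these 2 groups alone and 0.023 without CTCFL-OE replicate 1, and it was 0.34 with an edgeR adjusted p of 0.257 when length and GC trends were removed. In CTCFL-OE the log2 fold change was 0.24 (SE 0.28, 95% interval −0.37 to 0.85, edgeR adjusted p = 0.68), and −0.01 without CTCFL-OE replicate 2. CTCFL-KD and CTCFL-OE differed by 0.46 (95% interval −0.15 to 1.07, edgeR adjusted p = 0.237). Among genes annotated as protein-coding, *CLPTM1L* has the start nearest to that of *TERT*, at 50031 bases. It had a like log2 fold change in CTCFL-KD of 0.68 (SE 0.27, edgeR adjusted p = 0.0651), also with every library above Control.

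Telomerase partners and telomere-binding proteins were tested beside *TERT*. Of 18 genes, 0 were called in CTCFL-OE by edgeR and 0 by DESeq2, against 3.15% and 7.65% of all genes. An unadjusted p under 0.05 was reached by 2, against 3157 of all 17794 genes. In CTCFL-KD 0 rose and 4 fell, 22.2% of the list against 38.2% of all genes, with a median log2 fold change of −0.13. *RTEL1*, a helicase that opens telomere loops, fell by 1.06 on the log2 scale (SE 0.38, edgeR adjusted p = 0.0456), *POT1*, which covers the single-stranded telomere end, by 0.82 (SE 0.18, edgeR adjusted p = 0.00491), and *DKC1*, the pseudouridine synthase bound to the telomerase RNA, by 0.66 (SE 0.17, edgeR adjusted p = 0.0111). *DKC1* was at 73.9 to 103 CPM in CTCFL-KD and 132 to 141 CPM in Control, without overlap. Between CTCFL-KD and CTCFL-OE 1 gene was called higher and 3 lower, 22.2% of the list against 26.8% of all genes. *TINF2*, a shelterin subunit, was higher in CTCFL-KD (0.60, SE 0.17, edgeR adjusted p = 0.0268). *RTEL1* (−1.42), *POT1* (−0.60) and *DKC1* (−0.55) were lower there. Without CTCFL-KD replicate 1 the counts in CTCFL-KD were 1 higher and 6 lower, 38.9% of the list against 49.9% of all genes, and in CTCFL-OE 1 higher and 4 lower, 27.8% against 27.4%. With length and GC trends removed, 0 rose and 8 fell in CTCFL-KD, 44.4% against 46.2%. The call of *RTEL1* against Control was lost without any one Control library, CTCFL-OE replicate 2, or CTCFL-KD replicate 1 or 3 (edgeR adjusted p up to 0.125). Against CTCFL-OE it was lost without CTCFL-OE replicate 3 (0.0564). That of *TINF2* was lost without any one Control library or CTCFL-OE replicate 2 or 3 (up to 0.105). Those of *POT1* and *DKC1* against CTCFL-OE were lost without any one Control library, and without some libraries of the other groups.

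*BAG1* (ENSG00000107262.26, chr9:33247820-33264720, minus strand) encodes a cochaperone that releases substrate from HSP70 and binds BCL2. It was at 86.0, 86.4 and 87.4 CPM in Control, 124, 83.2 and 73.3 CPM in CTCFL-OE, and 134, 71.8 and 73.3 CPM in CTCFL-KD. The Control libraries lay close together, and in each of the other conditions replicate 1 was far above Control and its 2 fellows were below it. The mean differences were within that spread, at a log2 fold change of 0.11 for CTCFL-OE (SE 0.27, 95% interval −0.49 to 0.71, edgeR adjusted p = 0.857) and 0.10 for CTCFL-KD (SE 0.27, 95% interval −0.50 to 0.70, edgeR adjusted p = 0.788). Both turned negative without the high library, to −0.15 without CTCFL-OE replicate 1 and −0.25 without CTCFL-KD replicate 1. CTCFL-KD and CTCFL-OE differed by −0.01 (95% interval −0.61 to 0.59, edgeR adjusted p = 0.985). *CHMP5*, which starts 159 bases away on the opposite strand, was at a log2 fold change of −0.52 in CTCFL-KD (SE 0.19, edgeR adjusted p = 0.0538), below Control in all 3 libraries.

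Among 17 other BAG proteins and HSP70 partners, 0 were called in CTCFL-OE by edgeR, against 3.15% of all genes. DESeq2 called 3, all lower, 17.6% against 7.65%. At an unadjusted p under 0.05 there were 4, against 3157 of all 17794 genes. In CTCFL-KD 2 rose and 6 fell, 47.1% of the list against 38.2% of all genes, with a median log2 fold change of −0.38. *BAG2*, an HSP70 cochaperone that inhibits the ubiquitin ligase STUB1, was at 51.3 to 57.9 CPM in Control, 39.5 to 45.4 CPM in CTCFL-OE and 9.02 to 16.3 CPM in CTCFL-KD. It fell by 2.01 on the log2 scale in CTCFL-KD (SE 0.22, edgeR adjusted p = 7.93e-05), and the nucleotide exchange factors *HSPH1* and *HSPA4* fell by 1.17 and 1.11. The apoptosis inhibitor *BCL2* rose by 1.21 (SE 0.33, edgeR adjusted p = 0.0145) and *BAG6*, a chaperone of misplaced membrane proteins, by 0.57. Without CTCFL-KD replicate 1 the counts were 2 higher and 9 lower, 64.7% of the list against 49.9% of all genes, and in CTCFL-OE 0 higher and 6 lower, 35.3% against 27.4%. The call of *BAG6* was lost without any one Control library (edgeR adjusted p up to 0.0984), and that of *BCL2* without Control replicate 2 or CTCFL-KD replicate 3 (up to 0.0641).

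*GAL3ST1* (ENSG00000128242.13, chr22:30554635-30574665, minus strand) encodes cerebroside sulfotransferase, which adds sulfate to galactosylceramide and so makes sulfatide, a lipid abundant in myelin, kidney and some carcinomas. It was counted at 21, 8 and 15 reads in Control, at 16, 14 and 10 reads in CTCFL-OE, and at 20, 59 and 55 reads in CTCFL-KD. Scaled for depth these were 1.05, 0.311 and 0.760 CPM in Control, 0.730, 0.732 and 0.615 CPM in CTCFL-OE, and 1.80, 3.51 and 3.01 CPM in CTCFL-KD. Every CTCFL-KD library was above every library of the other conditions, and CTCFL-OE lay inside the range of Control. The level rose 4.05-fold in CTCFL-KD over Control (log2 fold change 2.02, SE 0.40, 95% interval 1.14 to 2.90, edgeR adjusted p = 0.00286), and 4.02-fold over CTCFL-OE (2.01, SE 0.40, edgeR adjusted p = 0.00447). In CTCFL-OE the log2 fold change was 0.01 (SE 0.44, 95% interval −0.95 to 0.97, edgeR adjusted p = 0.995). That interval runs from 0.517-fold to 1.96-fold, so a change of that size was not detectable. By size the CTCFL-KD change ranked 1177 of 17794 genes. It passed in all 19 alternatives that tested the gene, with log2 fold changes of 1.61 to 2.41 and adjusted p up to 0.021. Requiring 10 counts in every library dropped the gene, for the 8 counts of Control replicate 2. *SEC14L6*, with the nearest start among protein-coding genes at 27924 bases, had a log2 fold change of 0.72 in CTCFL-KD over Control (edgeR adjusted p = 0.0622) and 1.11 over CTCFL-OE (edgeR adjusted p = 0.016).

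UGT8 makes the galactosylceramide that GAL3ST1 sulfates, and FA2H hydroxylates the fatty acid of part of it. Sulfatide is broken down in the lysosome by ARSA and GALC with the activator PSAP. The list set beside *GAL3ST1* held genes of this route with its paralogs and enzymes of neighbouring glycolipids. Of the 15 tested, 0 were called in CTCFL-OE by edgeR, against 3.15% of all genes. DESeq2 called 2, both higher, 13.3% against 7.65%. At an unadjusted p under 0.05 there were 5, against 3157 of all 17794 genes. The list's median log2 fold change in CTCFL-OE was 0.38, against −0.01 for all genes. In CTCFL-KD 7 were called higher and 1 lower, with a median of 0.71 and 53.3% called, against 38.2% of all genes. *FA2H*, the fatty acid hydroxylase, was counted at 2 to 9 reads in Control, 3 to 5 in CTCFL-OE and 26 to 40 in CTCFL-KD (log2 fold change 3.05, SE 0.41, edgeR adjusted p = 0.000312). It passed the filter only through CTCFL-KD, so this p and its place among the 7 are descriptions. *GALC*, which removes the galactose, was at 2.08 to 2.25 CPM in Control, 2.82 to 4.18 CPM in CTCFL-OE and 37.3 to 54.9 CPM in CTCFL-KD. It rose 4.48 on the log2 scale (SE 0.24, edgeR adjusted p = 1.23e-06).

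*SUMF1*, which activates the sulfatases, rose from 24.1 to 72.2 CPM in mean (log2 fold change 1.58, SE 0.22, edgeR adjusted p = 0.000385). Also higher were *ARSA* (1.48), *PSAP* (1.25), *SLC35B2* (1.12), the Golgi carrier of the sulfate donor, and *GAL3ST4* (0.88), a sulfotransferase of other glycans. *ARSA*, *PSAP* and *SLC35B2* are named here after their values were seen, as is *UGT8*. Of the 7 called higher, *GALC*, *ARSA*, *PSAP* and *SUMF1* act in breakdown, and the galactosyltransferase *UGT8* was at 0.27 (edgeR adjusted p = 0.369). *PAPSS2*, which makes the sulfate donor, fell by 0.92 (SE 0.23, edgeR adjusted p = 0.00878). *GAL3ST2*, which passed the filter only through CTCFL-OE and is given as a description, had means of 0.342 CPM in CTCFL-KD and 0.999 CPM in CTCFL-OE. The glucosylceramide synthase *UGCG* was lower in CTCFL-KD than in CTCFL-OE (−0.96, SE 0.30, edgeR adjusted p = 0.0378). Without CTCFL-KD replicate 1 the counts in CTCFL-KD were 8 higher and 1 lower, 60% of the list against 49.9% of all genes, and in CTCFL-OE 5 higher and 1 lower, 40% against 27.4%. The call of *UGCG* was kept without CTCFL-OE replicate 1 or CTCFL-KD replicate 3 and lost without any of the other 7 libraries (edgeR adjusted p up to 0.134).

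**Figure D4:**
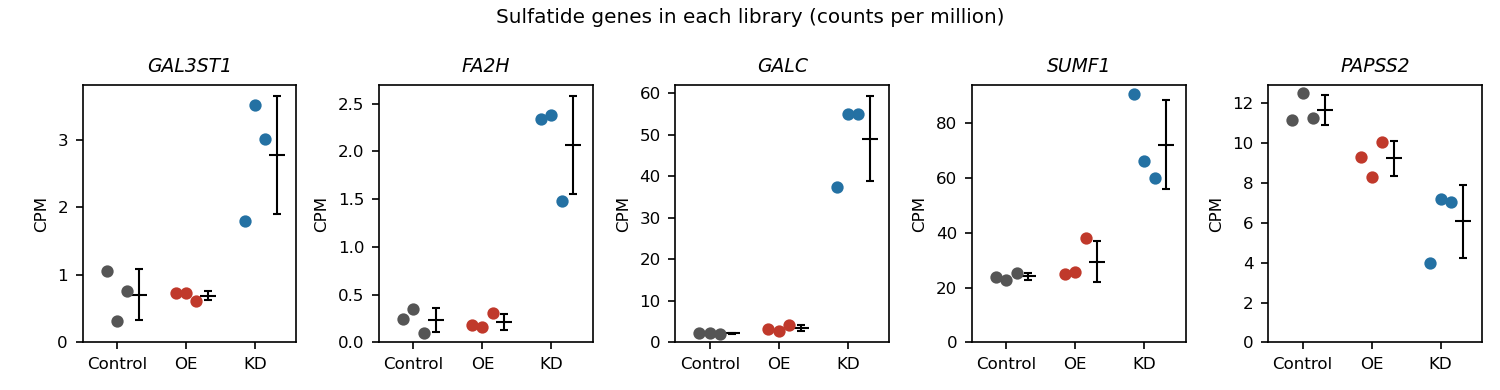
CPM (y axes, linear from 0, each gene on its own scale) of *GAL3ST1* and 4 sulfatide genes in each library of Control, CTCFL-OE (OE) and CTCFL-KD (KD), with mean ± SD of 3. In CTCFL-KD *GAL3ST1*, *FA2H*, *GALC* and *SUMF1* lie above all 6 other libraries and *PAPSS2* lies below them.

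*SBSN* (ENSG00000189001.11, chr19:35523367-35528351, minus strand) encodes suprabasin, a secreted protein of the differentiating epidermis. It was counted at 2, 1 and 13 reads in Control, at 2, 1 and 5 reads in CTCFL-OE, and at 6, 7 and 8 reads in CTCFL-KD, too few to pass the filter. CTCFL-KD libraries were above all CTCFL-OE libraries, but Control replicate 3 alone was above both groups. Fitted without the filter, over 37834 genes, CTCFL-KD differed from Control by a log2 fold change of 0.78 (SE 0.61, 95% interval −0.41 to 1.97, edgeR adjusted p = 0.452), CTCFL-OE from Control by −0.81 (SE 0.72, 95% interval −2.21 to 0.60, edgeR adjusted p = 0.702) and CTCFL-KD from CTCFL-OE by 1.59 (SE 0.68, 95% interval 0.25 to 2.93, edgeR adjusted p = 0.102). A change of *SBSN* was not detectable at this depth.

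Of 13 genes of the cornified envelope or near *SBSN*, 5 were tested. In CTCFL-OE edgeR called 0, DESeq2 called 0 and none had an unadjusted p under 0.05. In CTCFL-KD 2 rose and 1 fell, where 38.2% of all genes were called. *DMKN*, which lies in the same skin gene cluster as *SBSN*, rose from 79.6 to 167 CPM in mean (log2 fold change 1.07, SE 0.34, edgeR adjusted p = 0.0279), and *GRHL3*, a regulator of the epidermal barrier, rose by 1.57 (SE 0.30, edgeR adjusted p = 0.00217). *DMKN* was at 0.44 without CTCFL-KD replicate 1, and its call was lost without any one Control library (edgeR adjusted p up to 0.0867). *FLG*, filaggrin, was at 517 to 677 CPM in Control, 468 to 676 CPM in CTCFL-OE and 52.5, 222 and 158 CPM in CTCFL-KD. It fell by 2.05 (SE 0.42, edgeR adjusted p = 0.00337), and its lowest value was in CTCFL-KD replicate 1.

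*PRSS50* (ENSG00000283706.2, chr3:46712117-46717869, minus strand), a testis serine protease, was listed at 0 in all 9 libraries. All 1332 of its exon bases are also exons of the same-strand read-through gene ENSG00000206549 in GENCODE release 44, which was listed at 0 as well. How reads on 2 genes were counted is not given in the sources used here, so this 0 sets no limit on the level. None of 14 other genes listed as testis serine proteases passed the filter, and some of these carry pseudogene symbols.

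*CTCF*, the paralog that *CTCFL* resembles, was at 77.4, 85.2 and 79.5 CPM in Control, 77.9, 68.2 and 64.8 CPM in CTCFL-OE, and 54.2, 64.0 and 62.8 CPM in CTCFL-KD. CTCFL-KD lay below all other libraries, and CTCFL-OE reached into Control. In CTCFL-KD the log2 fold change was −0.42 (SE 0.16, 95% interval −0.77 to −0.07, edgeR adjusted p = 0.0566), past the threshold in 6 of 20 alternatives. In CTCFL-OE it was −0.20 (SE 0.16, 95% interval −0.55 to 0.15, edgeR adjusted p = 0.532). In FPKM *CTCF* stood at 7.98 in Control, and *CTCFL* at 0.0432.

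Another 9 genes proposed as CTCFL targets were set beside these, of which 7 were tested. They were chosen with earlier results of these libraries known, so neither their direction nor the share called is independent evidence. In CTCFL-OE 1 rose and 2 fell, 42.9% of the list against 3.15% of all genes. *H19*, the imprinted non-coding RNA whose control region binds CTCF, was at 12.7 to 13.3 CPM in Control, 1.05 to 4.20 CPM in CTCFL-OE and 85.2 to 149 CPM in CTCFL-KD. It fell by 2.54 in CTCFL-OE (SE 0.43, edgeR adjusted p = 0.0246) and rose by 3.09 in CTCFL-KD (SE 0.41, edgeR adjusted p = 0.000267), and the direct difference was 5.63 (SE 0.47, edgeR adjusted p = 2.73e-05). Without CTCFL-OE replicate 1 it was at −3.46 in CTCFL-OE, and the direct difference was 6.53. The receptor gene *NOTCH3* was higher in both conditions (0.91 and 1.02), and the matrix gene *FN1* lower in both (−1.60 and −1.90). The calls in CTCFL-OE were fragile, as none of the 7 was called when any one Control library, or CTCFL-OE replicate 2 or 3, was left out. In CTCFL-KD 3 rose and 3 fell, 85.7% of the list against 38.2% of all genes, the fallers including *BRCA1* (−1.03, SE 0.23) and *TGFB1* (−0.90, SE 0.23). The cancer-testis antigen *MAGEA1* had 0 counts in every library and *CTAG1B* at most 2.

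**Figure D5:**
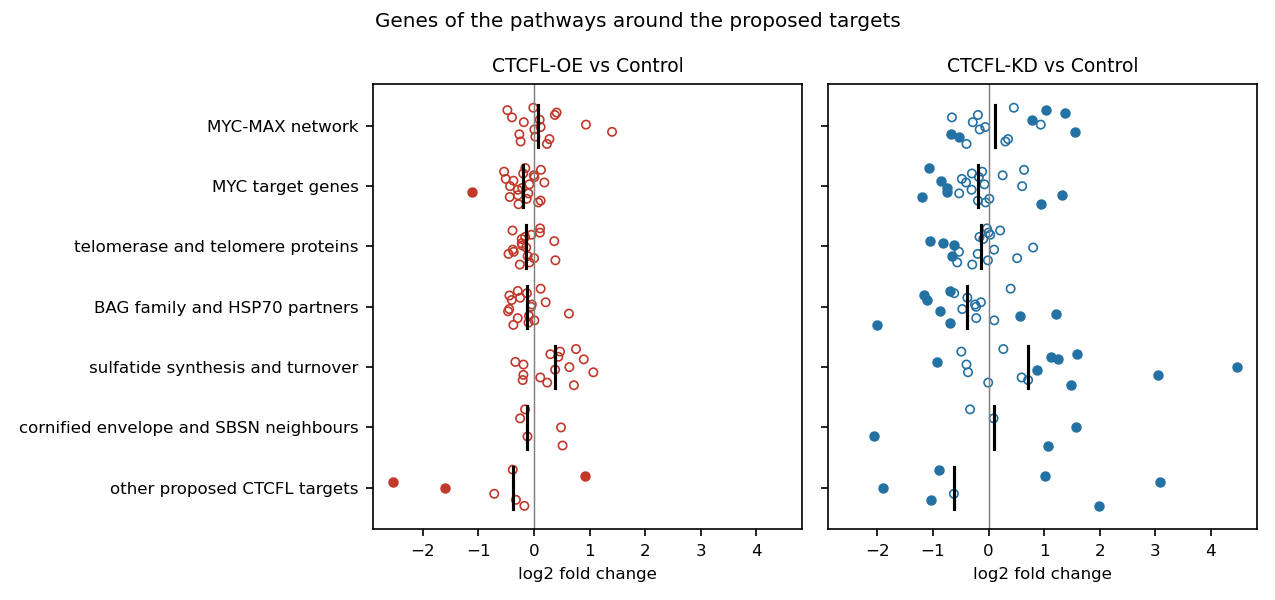
Log2 fold changes (x axes) of the tested genes of 7 lists around the proposed targets (rows), in CTCFL-OE (left) and CTCFL-KD (right) against Control. Points are genes, filled where the adjusted p passed, and the black bar is the list's median. In CTCFL-OE 4 genes are filled, *LDHA*, *H19*, *FN1* and *NOTCH3*, and in CTCFL-KD the sulfatide median lies at 0.71.

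For each tested gene, the 3 genes with the most similar log2 CPM over the 9 libraries were sought by Pearson's r, as a description in which all points share 3 conditions. They were *LCAL1* (r = 0.987), *BMPER* and *CD4* for *CTCFL*, *ZNF778* (0.979), *MICU3* and *C10orf88B* for *MYC*, and *PRPF31-AS1* (0.960), *ENGASE* and *GAL3ST4* for *TERT*. For *BAG1* they were *TNNC1* (0.970), *IGBP1* and *KIF17*, and for *GAL3ST1* they were *PPP1R3D* (0.970), *GSDMC* and *ZNF528*. None of these was itself one of the 7 genes.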

How the data were processed

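RNA-seq of OVCAR3 cells covered 3 conditions with 3 libraries apiece, grouped by their labels. The deposited values are raw counts per gene: per the study's methods, the authors made stranded mRNA libraries, trimmed with Trimmomatic, aligned to GRCh38 with STAR and counted with featureCounts. The submitters' processing notes also list kallisto. The annotation release, strand setting and handling of reads on several genes or places are not given in the sources used here. The matrix columns matched the single-library files in all 9 cases.

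Genes were kept by filterByExpr (17794 of 60660), scaled by TMM and fitted over all 9 libraries with condition as the only factor by edgeR 4.0.16 (glmQLFit, robust, R 4.3.3), with Benjamini-Hochberg adjustment. A call needed an adjusted p under 0.1 (CTCFL-OE against Control) or 0.05 (comparisons of CTCFL-KD). The study's methods, which used DESeq2, give these thresholds for CTCFL-OE and CTCFL-KD against Control. They also require a log2 fold change beyond 1, which a call here does not. CTCFL-KD against CTCFL-OE takes the threshold of CTCFL-KD. The fit was tested on simulated data. FPKM divides CPM by the union of GENCODE release 44 exons, which named 60419 of the 60660 identifiers. Promoter windows came from RefSeq on GRCh38. Python 3.11.15 and matplotlib 3.10.9 drew the figures.

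The genes and lists were chosen with earlier results of these data known. Named were the 7 genes, *CTCF*, up to 3 risers and 3 fallers per list and comparison, and the 3 genes most alike each tested gene. Genes that overlap one of the 7, and the protein-coding gene with the nearest start, were named as well. Not every gene that rule allows is printed, and 1 is not reported here. *ARSA*, *PSAP*, *SLC35B2*, *UGT8*, *COL1A1*, *COL3A1*, *DCN*, *MAGEA1* and *CTAG1B* were named outside that rule, after their values were seen. Intervals of fold changes come from the fit and include the spread between libraries, while the limit of 3 counts covers counting error only. Same-numbered Control and CTCFL-KD libraries deviated together as counted (r = 0.304, 0.174 and 0.219 over 14490 genes). With length and GC trends removed, r was 0.116, 0.132 and 0.106. For CTCFL-OE with Control, r was −0.03, 0.21 and −0.05 as counted, and 0.01, 0.24 and −0.05 with trends removed. For CTCFL-KD with CTCFL-OE, r was −0.004, 0.064 and 0.014 as counted, and 0.102, 0.172 and 0.058 with trends removed. Whether the replicate numbers mark a pairing cannot be told from these values. A total of 20 alternatives were run, among them DESeq2 1.42.0, other scalings and filters, a replicate block, removal of length and GC trends, and leaving out each library.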

Additional observations from a re-analysis of the deposited data

How the results depend on the processing

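The calls of *GAL3ST1* in both comparisons of CTCFL-KD were kept in every alternative that tested the gene. With at least 10 counts required in every library, *CTCFL* and *GAL3ST1* were not tested, so that 0 of the 7 genes were called in CTCFL-OE, 0 in CTCFL-KD and 0 between them. The counts over the 7 genes include *CTCFL*, whose own calls are descriptions because it passed the filter only through CTCFL-OE. In CTCFL-OE 1 of the 7 was called in the reported fit, 2 with edgeR and 2 with DESeq2 on the 2 groups compared (*CTCFL* and *MYC*), and 0 to 2 when 1 library was left out. In CTCFL-KD the number was 2, and 1 to 3 with 1 library left out, and between CTCFL-KD and CTCFL-OE it was 2, and 2 to 3. With the replicate block it was 1, 2 and 2 in the 3 comparisons, and the block changed no call of these genes. Over all genes, CTCFL-OE gave 561 calls, against 1373 with DESeq2 on all 9 libraries, 3775 with DESeq2 and 3450 with edgeR on 2 groups, 1517 with no filter, 1857 with length and GC trends removed and 1891 with the block as well, and 44 to 5040 with 1 library left out, the highest without CTCFL-KD replicate 1 and at most 117 without any one Control library or CTCFL-OE replicate 2 or 3. CTCFL-KD against CTCFL-OE gave 4771 calls, 2668 with edgeR on 2 groups and 3181 to 7297 with 1 library left out, the highest again without CTCFL-KD replicate 1. Directions turned for genes near 0, and the cause was not tested. In CTCFL-OE, *TERT* was at −0.0042 with length and GC trends removed, −0.0136 with the block too, and −0.0077 to 0.49 with 1 library left out. *GAL3ST1* was there at −0.0052 with DESeq2 on all libraries, −0.179 with trends removed, −0.181 with the block too, and −0.387 to 0.407 with 1 left out. *BAG1* ran from −0.154 to 0.255 in CTCFL-OE and −0.252 to 0.264 in CTCFL-KD with 1 left out (−0.0183 in CTCFL-KD with block and trends), and between CTCFL-KD and CTCFL-OE it was 0.0075 with trends removed and −0.365 to 0.247 with 1 left out. *MYC* in CTCFL-KD ran from −0.341 to 0.0391. Depth limits *CTCFL*, *GAL3ST1* and *SBSN*, with 25, 44 and 16 counts over the 3 Control libraries.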
